A study of Mus musculus with 8 samples.

Results

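The embryonic macrophage genes described here are 10 genes that mark macrophages or serve their receptors and complement output: Csf1r, Cx3cr1, Mrc1, Adgre1, Ptprc, C1qa, C1qb, C1qc, Tyrobp and Fcer1g. They were chosen by name, and all 10 were among the 14608 genes listed in the expression table. The libraries came from the outflow tract (OFT) of mouse embryos at embryonic day 11.5, the vessel that leaves the embryonic heart and later forms the base of the aorta and pulmonary artery with their valves. PolyA RNA was sequenced from 4 control pools and 4 mutant pools. Mutant embryos carried 1 Mib1 allele with V943F and 1 Gata6 STOP allele (Mib1V943F/+ Gata6STOP/+), both in the germline, so that every cell of the embryo carried them. Mib1 encodes a ubiquitin ligase that acts on Notch ligands, and Gata6 a cardiac transcription factor. Control embryos have the genotype control and titles that call them WT, with no strain given. By the labels each pool held tissue of 3 embryos, whereas the study's methods give other numbers of pools and of tissues in each. Since nothing states that the pools came from separate litters, p-values measure the spread between these pools.

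Macrophages of the early embryo descend mainly from the yolk sac and enter the heart through the blood and the surrounding tissue before the bone marrow exists. They depend on the growth factor receptor Csf1r, engulf dying cells, and are the chief makers of the 3 chains of C1q, the recognition protein of the classical complement pathway. In remodelling hearts they lie along the epicardium, around vessels and in the valve cushions.

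Values are CPM, the reads of a gene as a share of the reads of its library, which the authors scaled with the trimmed mean of M-values. Values of a library were whole multiples of the worth of 1 read, from which its depth could be read. Control libraries 1 to 4 held 28212669, 10669420, 24833953 and 25963535 reads on listed genes, and mutant libraries 1 to 4 held 21064242, 27194966, 30469165 and 26142501. One read was therefore worth 0.0948 CPM in control 2, the shallowest library, and 0.0325 CPM in mutant 3, the deepest. The 10 genes had between 33 and 708 reads in a library. Mutant 2 stood apart from the other mutant libraries over all genes: its mean chi-square per gene was 31.3, 30.8 and 33.7 against mutants 1, 3 and 4, compared with 9.38 to 12.4 among those 3 and 6.67 to 18.5 among the controls.

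Divided by the length of the longest coding transcript, the 3 C1q genes had the highest means of the 10. This order did not hold in every library: C1qc was above Tyrobp in 7 of 8. In control 1, C1qa was at 3.36 CPM per kb, under the lowest value of Csf1r, 3.49 CPM per kb. C1qb had 8.57 CPM per kb over the 8 libraries, and was above C1qa, at 6.54 CPM per kb, in 8 of 8 libraries. C1qa and C1qc could not be ordered, since C1qc had 6.39 CPM per kb and C1qa was the higher in 4 of 8 libraries. The adaptor Tyrobp, the receptor Csf1r and the adaptor Fcer1g followed at 4.38, 4.07 and 4.07 CPM per kb, and they did not differ beyond the spread between libraries. Next came Cx3cr1 at 2.03, Adgre1 at 1.32 and Mrc1 at 1.005 CPM per kb, each above the next in 8 of 8 libraries, with Mrc1 above Ptprc, at 0.562 CPM per kb, in 7 of 8. The order of the levels per length is drawn for both groups.

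**Figure D1:**
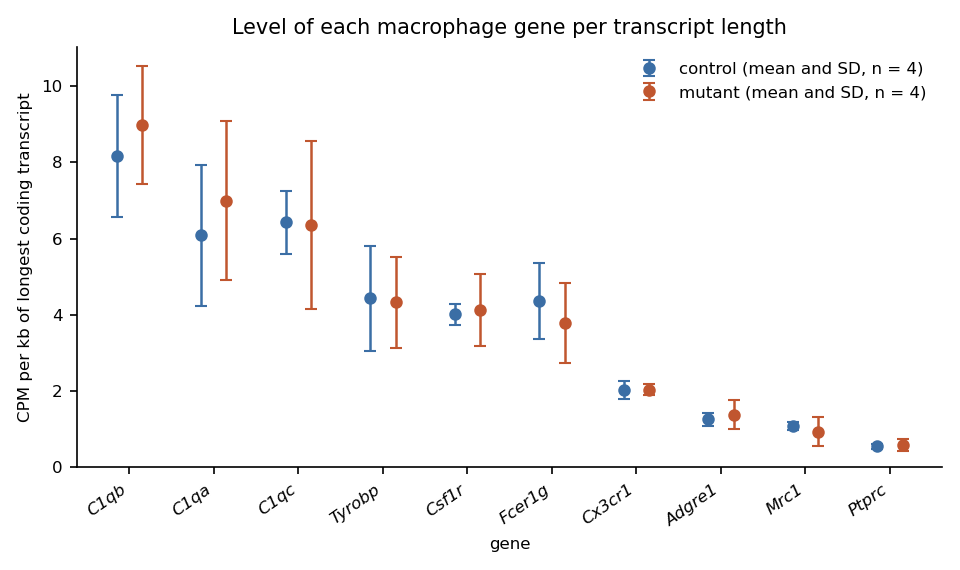
Mean and SD (n = 4 libraries per group) of CPM per kb of the longest coding transcript for each gene, control in blue and mutant in orange. C1qb lies highest at 8.57 CPM per kb over all libraries and Ptprc lowest at 0.562 CPM per kb, and the SD bars of control and mutant overlap for every gene.

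Csf1r is the receptor for the growth factors Csf1 and Il34, on which most macrophages depend for survival. It was at 17.1, 18.7, 19.6 and 20.1 CPM in control libraries 1 to 4, and at 16.4, 26.0, 17.6 and 17.5 CPM in mutant libraries 1 to 4. Mutant 2 alone lay above every control, and the other 3 mutant libraries lay within or just under the control range. Its 95% counting interval, 24.2 to 28.0 CPM, did not touch that of any other library. Group means were 18.9 ± 1.28 CPM in controls and 19.4 ± 4.48 CPM in mutants (SD, n = 4 each). The log2 fold change, taken here and throughout on log2(CPM + 0.5) as mutant minus control, was 0.016 with a 95% interval from -0.27 to 0.30 (limma, Benjamini-Hochberg adjusted p = 0.967 over 14608 genes). Exons of Csf1r share 873 bases with exons of Hmgxb3 on the opposite strand, a gene at 52.6 CPM, and the kit used marks the strand, but whether reads were counted by strand is not given in the sources used here, so the level of Csf1r is uncertain to that extent.

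Cx3cr1 is the receptor for the membrane-bound chemokine Cx3cl1 and marks yolk-sac-derived macrophages and their progenitors. Control libraries 1 to 4 had 8.57, 8.72, 8.51 and 10.7 CPM of Cx3cr1, and mutant libraries 1 to 4 had 10.04, 8.54, 9.07 and 8.83 CPM. Control 4 and mutant 1 were the highest, and the groups overlapped throughout. Its means of 9.13 ± 1.06 and 9.12 ± 0.650 CPM were the closest pair among the 10 genes, with a log2 fold change of 0.0019 (95% interval -0.24 to 0.24). The annotated Cx3cr1 gene spans 168264 bp and encloses or meets 4 other listed genes, but shares 0 exon bases with them.

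Mrc1, the mannose receptor of tissue macrophages, takes up glycoproteins and is also made by some endothelial cells. In controls 1 to 4 it was at 5.33, 6.16, 6.45 and 5.20 CPM, and in mutants 1 to 4 at 3.27, 7.62, 5.69 and 3.47 CPM. Mutants 1 and 4 were under all 4 controls and mutant 2 was above them, so that the mutant group enclosed the controls. The means were 5.79 ± 0.615 and 5.01 ± 2.06 CPM, and the log2 fold change of -0.26 (95% interval -0.74 to 0.22) was the lowest of the 10 genes (limma, Benjamini-Hochberg adjusted p = 0.630).

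Adgre1 encodes F4/80, an adhesion receptor of the macrophage surface, and Ptprc encodes CD45, a phosphatase of the surface of nearly all white blood cells. Adgre1 was at 3.78, 4.17, 4.80 and 3.55 CPM in controls 1 to 4 and at 3.501, 6.11, 4.75 and 3.503 CPM in mutants 1 to 4. Ptprc was at 2.38, 3.13, 2.54 and 2.97 CPM in controls 1 to 4 and at 3.45, 3.64, 1.85 and 2.86 CPM in mutants 1 to 4. Mutant 2 was the highest library for both genes, whereas mutant 3 was the lowest for Ptprc and among the higher ones for Adgre1. Log2 fold changes were 0.09 for Adgre1 (95% interval -0.30 to 0.48) and 0.06 for Ptprc (95% interval -0.36 to 0.48).

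The genes of the 3 C1q chains lie side by side on chromosome 4 in the order C1qb, C1qc and C1qa, between 136880129 and 136898803 on GRCm38, all on the minus strand, with no other annotated gene in these 18675 bp. C1qa was at 3.49, 7.78, 6.90 and 7.13 CPM in controls 1 to 4 and at 6.07, 10.4, 6.86 and 5.71 CPM in mutants 1 to 4. C1qb was at 6.99, 11.2, 8.43 and 8.94 CPM in controls 1 to 4 and at 8.22, 12.03, 10.01 and 8.80 CPM in mutants 1 to 4. C1qc was at 6.77, 7.02, 8.35 and 8.79 CPM in controls 1 to 4 and at 4.34, 10.9, 7.61 and 7.81 CPM in mutants 1 to 4. Mutant 2 had the highest value of all 3 chains, control 1 the lowest of C1qa and C1qb, and mutant 1 the lowest of C1qc. Groups overlapped for each chain, and the log2 fold changes were 0.20 for C1qa (95% interval -0.31 to 0.72), 0.13 for C1qb (95% interval -0.20 to 0.47) and -0.07 for C1qc (95% interval -0.53 to 0.39).

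The 3 chains assemble in equal numbers into C1q, but their shares of the C1q reads varied between libraries. C1qa made up 20.3% of the reads on the 3 genes in control 1 (95% Wilson interval 16.9 to 24.1%, 97 of 479 reads) and 25.6 to 32.6% in the other 7 libraries. C1qc made up 23.3% in mutant 1 (95% Wilson interval 19.4 to 27.7%, 93 of 399 reads) and 27.0 to 39.2% in the others. These intervals, like the counting intervals of single genes, cover counting error only, since reads copied in the PCR are not separate molecules. The low C1qa of control 1 and the low C1qc of mutant 1 were thus each seen in 1 library, and the nearest library's share, 25.6% of C1qa in mutant 4 and 27.0% of C1qc in control 2, had an interval that overlapped it.

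Promoters are shown for C1qb and C1qc, neighbours on the chromosome that both varied with the rest of the 10 genes, and for Cx3cr1, which did not. Each runs from 250 bases before to 50 bases after a RefSeq start of the gene and is written in the direction of transcription. All are on the minus strand of GRCm38.p6: C1qb at chr4:136886151-136886450, C1qc at chr4:136892865-136893164 and Cx3cr1 at chr9:120068247-120068546. The Cx3cr1 window lies inside the gene as annotated by GENCODE, which begins at 120069879 on this strand, so it is not the window of that start. Capitals mark AGGAAGT on either strand, so that ACTTCCT is the same site read from the other strand.
C1qb: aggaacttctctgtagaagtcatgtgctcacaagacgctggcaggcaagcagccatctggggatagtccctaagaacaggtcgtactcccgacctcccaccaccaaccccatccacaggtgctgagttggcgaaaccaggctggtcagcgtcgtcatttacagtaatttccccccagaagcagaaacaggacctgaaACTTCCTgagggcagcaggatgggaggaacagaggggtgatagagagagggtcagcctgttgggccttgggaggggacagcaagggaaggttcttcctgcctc
C1qc: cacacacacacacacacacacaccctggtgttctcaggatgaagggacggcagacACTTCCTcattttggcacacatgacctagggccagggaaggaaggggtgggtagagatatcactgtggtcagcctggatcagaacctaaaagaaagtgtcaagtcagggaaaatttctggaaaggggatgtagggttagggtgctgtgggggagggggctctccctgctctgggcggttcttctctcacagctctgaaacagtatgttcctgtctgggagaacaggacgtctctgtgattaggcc
Cx3cr1: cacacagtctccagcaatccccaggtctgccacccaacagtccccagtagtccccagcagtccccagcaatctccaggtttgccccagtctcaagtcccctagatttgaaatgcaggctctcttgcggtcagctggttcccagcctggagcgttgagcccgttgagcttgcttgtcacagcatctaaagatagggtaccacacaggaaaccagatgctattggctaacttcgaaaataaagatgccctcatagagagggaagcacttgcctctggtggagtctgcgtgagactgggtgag
The marked letters contain GGAA, the core bound by ETS transcription factors, a family that includes the myeloid factor Spi1. They were chosen after these promoters had been read, so the counts are a description. RefSeq promoters matched 6 of the 10 genes with 7 windows of 300 bp, and AGGAAGT stood in 5 of the 7 windows and in 4 of the 6 genes, against 9.35% of 32851 promoters of the same length and 8.19% of the 13805 of listed genes. Its first base lay 53 bases before the start in C1qb, 195 in C1qc and 211 in Mrc1. The pair of Ptprc windows overlap and share 1 of their matches. GAGGAAGT, which holds the shorter motif, stood in the window of C1qc only, against 3.20% of all promoters. Neither motif was in the windows of Cx3cr1 and Fcer1g, which says only that these letters are not in these 300 bases. Among matched genes whose windows are not shown, Ptprc and Mrc1 held AGGAAGT and Fcer1g did not. Their Pearson's r with the average of the rest of the 10 genes was 0.18, 0.72 and 0.86 in that order. A link between the motif and how the genes varied together was not tested.

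Tyrobp (DAP12) and Fcer1g are membrane adaptors that carry an activation motif for receptors without a signalling tail of their own, Tyrobp for Trem2 and its relatives and Fcer1g for Fc receptors. Tyrobp was at 1.84, 3.79, 2.46 and 2.51 CPM in controls 1 to 4 and at 1.87, 3.35, 3.02 and 2.09 CPM in mutants 1 to 4. Fcer1g was at 2.09, 3.70, 3.23 and 2.89 CPM in controls 1 to 4 and at 1.73, 3.46, 2.73 and 2.40 CPM in mutants 1 to 4. Both adaptors were highest in control 2 and next highest in mutant 2, and both were low in control 1 and mutant 1. With 40 to 93 reads of Tyrobp and 37 to 94 of Fcer1g in a library, their counting intervals were wide, from 2.71 to 5.17 CPM for Tyrobp in control 2. The log2 fold change was -0.03 for Tyrobp (95% interval -0.51 to 0.46) and -0.18 for Fcer1g (95% interval -0.64 to 0.27).

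**Figure D2:**
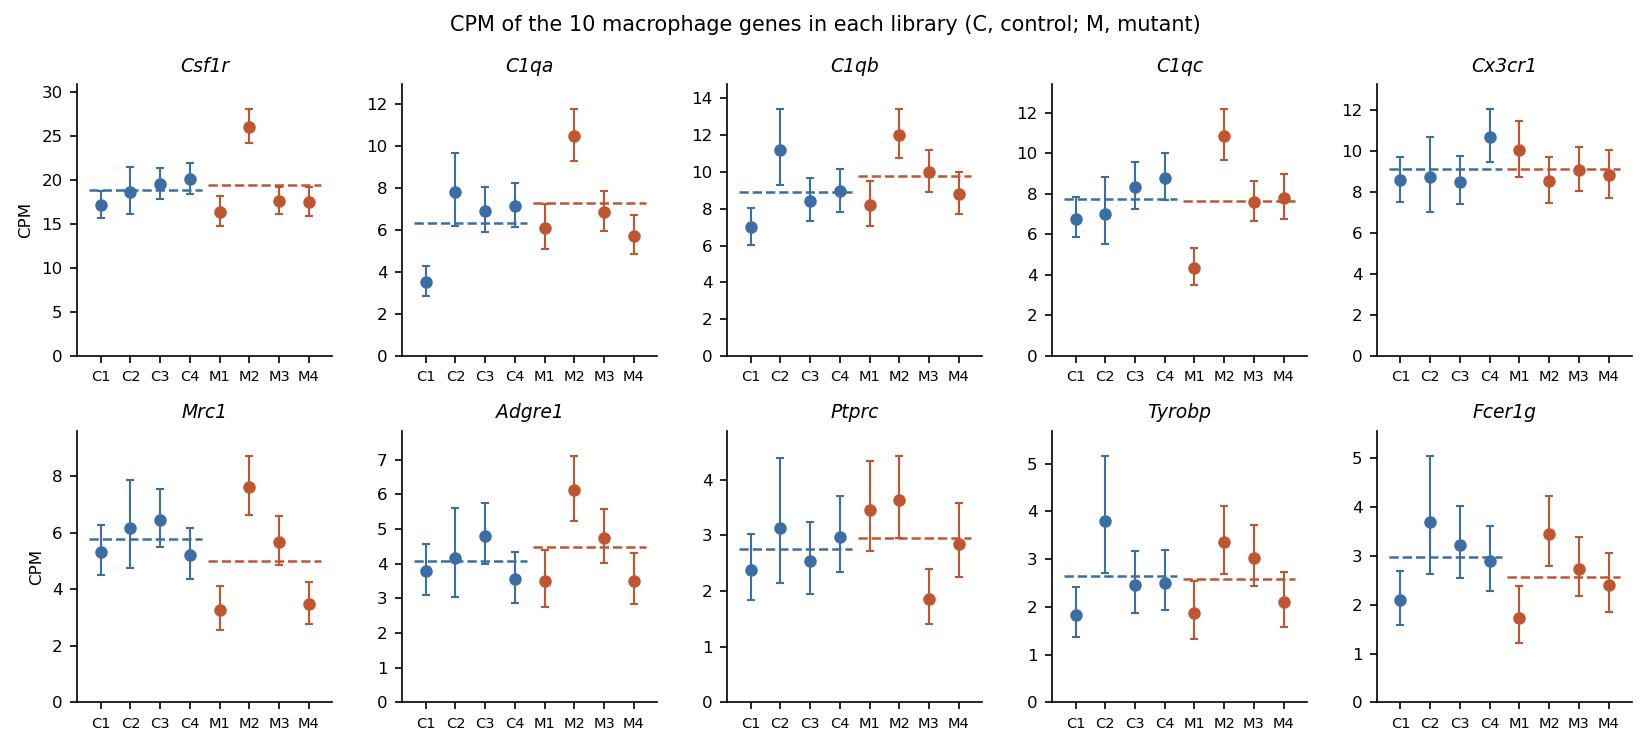
CPM of each of the 10 genes in control libraries 1 to 4 (blue) and mutant libraries 1 to 4 (orange), with exact Poisson 95% counting intervals as bars and the group means as dashed lines. Mutant 2 is the highest library in 7 of the 10 panels, reaching 26.0 CPM for Csf1r, and the groups overlap in all 10.

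Between control and mutant libraries 0 of the 10 genes passed an adjusted p of 0.05 in limma, nor did any of the 14608 genes (0% called, smallest Benjamini-Hochberg adjusted p = 0.124). This holds for limma on log2(CPM + 0.5): the study's own edgeR model reported differentially expressed genes at an adjusted p under 0.05. At an unadjusted p under 0.05, limma called 0 of the 10 as higher, against 5.45% of all genes, and 0 of the 10 as lower, against 6.62%. The groups of 4 did not overlap for 0 of the 10, against 7.1% of all genes. Log2 fold changes were above 0 for 6 of the 10 and below 0 for 4, with a median of 0.0089 against 0.0010 over all genes, and they ran from -0.26 for Mrc1 to 0.20 for C1qa. The exact 2-sided permutation test over the 70 relabellings, whose smallest possible p is 0.0286, gave p from 0.457 to 0.971 for the 10 genes. A p that misses the threshold does not show equal levels: the widest 95% intervals reached from -0.74 for Mrc1 up to 0.72 for C1qa, while that of Cx3cr1 ran from -0.24 to 0.24. Without mutant 2, limma called 1 of the 10, Mrc1, as lower (log2 fold change -0.47, unadjusted p = 0.0252). In that fit, 798 of all 14608 genes were lower and 532 higher at an unadjusted p under 0.05.

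Over all genes, 796 were higher and 967 lower at an unadjusted p under 0.05 in limma, a total of 1763 that came down to 1121 without control 2 and to 1172 without control 3. Scaling each library to the same sum of CPM instead gave 1161 higher and 740 lower, that is 61.1% of them higher against 45.2%.

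**Figure D3:**
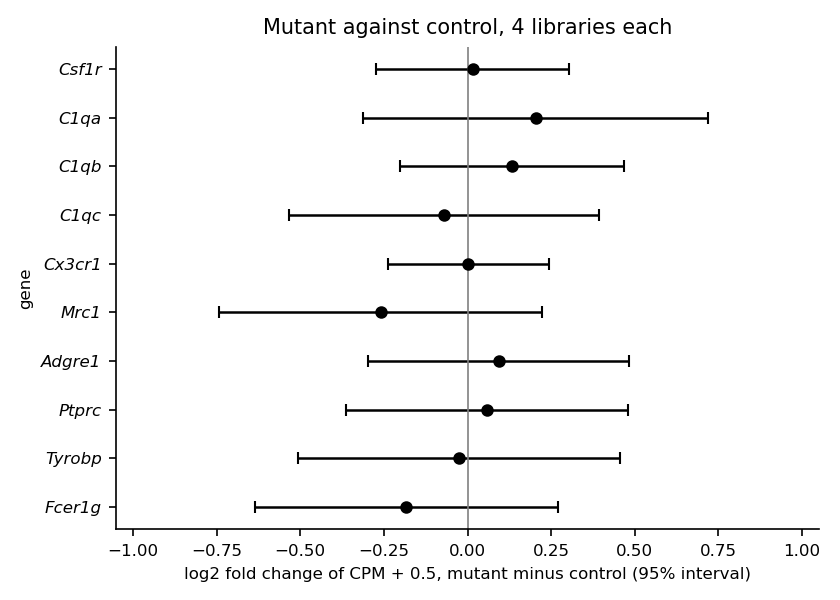
Log2 fold change of CPM + 0.5 for each of the 10 genes, mutant minus control (points), with the 95% interval of limma (bars) from 4 libraries per group. All 10 intervals include 0, from Mrc1 at -0.26 to C1qa at 0.20.

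Between libraries the genes varied to different extents. The highest library was 2.99 times the lowest for C1qa, 2.33 times for Mrc1, 1.59 times for Csf1r and 1.26 times for Cx3cr1, the smallest of these ratios among the 10. The CPM of the 10 genes together was 58.4, 74.3, 71.2 and 72.8 in controls 1 to 4 and 58.9, 92.1, 69.2 and 62.9 in mutants 1 to 4. Control 1 and mutant 1 thus had nearly the same low sum, and mutant 2 had the highest. Group means of this sum were 69.2 ± 7.30 CPM and 70.8 ± 14.8 CPM (SD, n = 4 each), a ratio of 1.02, or 0.920 without mutant 2. In whole tissue, fewer macrophages and less RNA per macrophage cannot be told apart.

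Most of the 10 genes varied together between libraries. Mutant 2 was above the gene's own mean for 9 of the 10 and the highest library for 7, while mutant 1 was the lowest library for 5 and control 1 for 3. Over the 8 libraries, Pearson's r between a gene's deviation from its mean and the average deviation of the other 9 was 0.87 for Csf1r, 0.86 for Fcer1g, 0.85 for C1qb, 0.83 for Tyrobp and for C1qa, 0.75 for Adgre1, 0.72 for Mrc1 and 0.68 for C1qc. Spearman's rho for these 8 ran from 0.62 for Adgre1 to 0.93 for Fcer1g. Without mutant 2 their r ran from 0.47 for C1qc to 0.94 for Fcer1g, and without the pair of libraries farthest from the median from 0.48 for Adgre1 to 0.96 for Fcer1g. Ptprc, with r = 0.18 and rho = 0.24, and Cx3cr1, with r = -0.30 and rho = -0.48, did not follow the rest. Their signs were not stable: without mutant 2, r was -0.24 for Ptprc and -0.12 for Cx3cr1. Without the pair of libraries farthest from the median, r was 0.13 for Ptprc and 0.18 for Cx3cr1. These values are descriptions over 8 points that share their libraries and depths. Of all pairs, C1qb and Tyrobp were most alike (r = 0.92), followed by C1qa and C1qb (r = 0.90), and Cx3cr1 and Adgre1 least (r = -0.56).

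**Figure D4:**
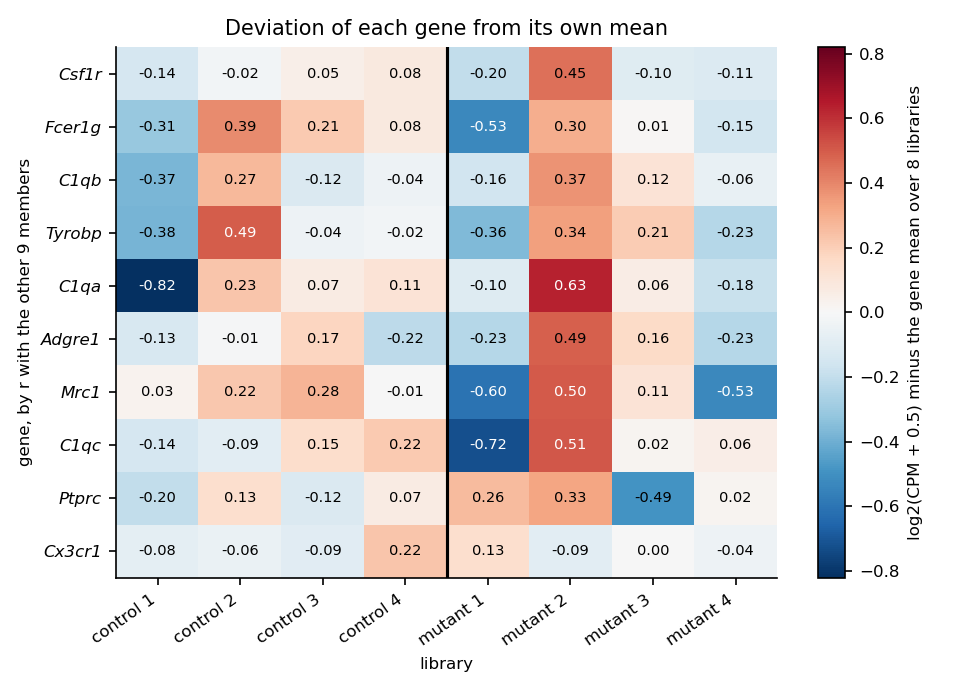
Deviation of log2(CPM + 0.5) from the gene's mean over the 8 libraries, genes ordered by their r with the other 9 and a black line between control and mutant libraries. Red marks higher and blue lower values: mutant 2 is red for 9 of the 10 genes and reaches 0.63 for C1qa, which lies at -0.82 in control 1, while Cx3cr1 lies between -0.09 and 0.22.

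The 10 further genes whose levels were most like the average of the macrophage genes had Pearson's r from 0.94 to 0.97 over the 8 libraries. They were Ndufa4l2, Maf, Lancl1, Cdipt, Nckap1l, Dhrs3, S100a11, Pik3ap1, Ciao1 and Rnf7, named here as the highest of all genes and not as a tested set. Maf encodes a transcription factor made by many tissue macrophages and also by other cells of the embryo. It was at 17.3, 24.3, 22.9 and 23.4 CPM in controls 1 to 4 and at 18.6, 30.5, 22.9 and 21.7 CPM in mutants 1 to 4 (r = 0.97, rho = 0.93, and r = 0.93 without mutant 2). Nckap1l, a blood cell subunit of the complex that drives actin branching, was at 5.26, 7.59, 6.70 and 7.63 CPM in controls 1 to 4 and at 5.23, 9.42, 6.05 and 5.41 CPM in mutants 1 to 4 (r = 0.96, rho = 0.90, and r = 0.93 without mutant 2). Ndufa4l2, a mitochondrial protein, had the highest r at 0.97, with 10.8 CPM in mutant 1 and 25.9 CPM in mutant 2.

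Counts of genes at an unadjusted p under 0.05 in this and the following lists stand against 5.45% of all genes as higher and 6.62% as lower. Of 5 ligands that act on macrophages, among them those of Csf1r and Cx3cr1, Csf1, Cx3cl1 and Tgfb1 were listed, and 0 of the 3 passed an unadjusted p of 0.05. Csf1 was at 27.8 ± 3.85 CPM in controls and 30.1 ± 3.49 CPM in mutants, and Cx3cl1 at 11.8 ± 1.96 and 9.93 ± 1.09 CPM. Tgfb1, a ligand with many roles in the heart, was at 57.6 ± 9.44 and 51.4 ± 8.72 CPM. Csf1 had r = 0.75 with the 10 genes and Cx3cl1 had r = -0.25.

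Of 14 myeloid transcription factors 13 were listed, and 1 was lower at an unadjusted p under 0.05. Spi1, the factor on which myeloid cells depend, was at 2.31 ± 0.441 CPM in controls and 2.03 ± 0.339 CPM in mutants, with r = 0.76. Spi1 is named after its values were seen. The most abundant of the list were Id3 at 177 ± 22.8 and 189 ± 15.9 CPM, Zeb2 at 58.4 ± 7.26 and 65.7 ± 3.75 CPM, and Maf.

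Among 27 receptors and signalling proteins that work with Tyrobp and Fcer1g, 17 were listed, 0 were higher and 1 was lower at an unadjusted p under 0.05. Fyb, an adaptor of white blood cells and platelets, was at 2.92, 3.604, 2.58 and 3.08 CPM in controls 1 to 4 and at 1.77, 2.17, 2.15 and 1.37 CPM in mutants 1 to 4. All 4 mutant libraries were under all 4 controls, with a log2 fold change of -0.59 (95% interval -0.97 to -0.21, limma, Benjamini-Hochberg adjusted p = 0.267). The inhibitory receptor Sirpa was at 47.9 ± 3.30 and 47.1 ± 2.92 CPM, and the kinases Syk at 20.7 ± 2.88 and 17.6 ± 2.20 CPM and Lyn at 17.8 ± 1.08 and 16.2 ± 0.721 CPM, in controls and mutants in that order.

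Of 30 genes for complement proteases, components, regulators and receptors, 16 were listed, 1 was higher and 1 was lower at an unadjusted p under 0.05. The higher one was Cd55, which protects cells from their own complement, at 40.4 ± 4.30 CPM in controls and 51.9 ± 9.49 CPM in mutants (log2 fold change 0.35, limma, Benjamini-Hochberg adjusted p = 0.331). The lower one was Cd93, an endothelial and myeloid receptor, at 123 ± 20.1 and 103 ± 8.42 CPM (log2 fold change -0.24). For both genes the groups overlapped, with mutant 4 at 41.5 CPM of Cd55 among the controls. Calr, a chaperone of the endoplasmic reticulum that binds C1q at the surface of dying cells, was the most abundant at 923 ± 57.3 and 906 ± 97.0 CPM, and the lectin pathway protease Masp1 was at 81.9 ± 5.78 and 94.8 ± 15.01 CPM. Genes of the proteases that C1q activates, C1ra, C1rb, C1s1 and C1s2, were not among the listed genes.

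Of 24 genes for scavenging and engulfment, 18 were listed, 1 was higher and 4 were lower at an unadjusted p under 0.05, against 5.45% and 6.62% of all genes. Pros1, a bridge between dying cells and the receptors of the Mertk family, was the higher one, at 21.0 ± 2.49 CPM in controls and 25.5 ± 3.03 CPM in mutants (log2 fold change 0.27). Cd68, a lysosomal glycoprotein of macrophages, was at 3.71, 5.59, 5.24 and 4.16 CPM in controls 1 to 4 and at 3.69, 3.53, 3.25 and 2.93 CPM in mutants 1 to 4. Its groups did not overlap, though control 1 and mutant 1 differed by less than the worth of 1 read, and its log2 fold change was -0.42 (limma, Benjamini-Hochberg adjusted p = 0.351). Groups did not overlap for Scarb1, Mfge8 and Msr1 either, all lower in mutants, which in either direction held for 7.1% of all genes. Msr1, named after its values were seen, had a log2 fold change of -0.39 (limma, unadjusted p = 0.053). Log2 fold changes of the other 3 that passed as lower were -0.30 for the endothelial and macrophage scavenger receptor Stab1, -0.22 for the lipoprotein receptor Scarb1 and -0.15 for the bridging protein Mfge8. The last of these had the highest CPM of the list, 170 ± 12.3 and 153 ± 3.83, followed by Axl at 157 ± 1.82 and 164 ± 15.9 CPM and Itgb5 at 162 ± 11.5 and 152 ± 13.5 CPM, all 3 of which many cells of the heart make. The count of 5 that passed came down to 2 without control 2, control 3 or mutant 2.

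Of 14 lysosome and granule genes 13 were listed, 1 was higher and 2 were lower at an unadjusted p under 0.05. The higher one was the lipase Lipa at 70.02 ± 5.84 and 80.9 ± 7.38 CPM (log2 fold change 0.21). Progranulin (Grn) was at 158 ± 8.86 CPM in controls and 137 ± 6.95 CPM in mutants with groups that did not overlap (log2 fold change -0.20, limma, Benjamini-Hochberg adjusted p = 0.295), and the lysozyme Lyz2 at 7.13 ± 1.36 and 5.45 ± 0.878 CPM (log2 fold change -0.35). Psap, Ctsd and Ctsb, which every cell makes, were at 472 ± 19.3, 440 ± 26.0 and 393 ± 17.0 CPM in controls and at 448 ± 20.7, 420 ± 45.6 and 380 ± 8.96 CPM in mutants. The count of 3 that passed came down to 1 without control 2 or mutant 3. This list had a median r of 0.56 with the 10 macrophage genes.

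Of 29 genes of resident macrophages and monocytes 14 were listed, 0 were higher and 1 was lower at an unadjusted p under 0.05. F13a1, the coagulation factor chain made by macrophages and megakaryocytes, was at 4.45 ± 0.938 CPM in controls and 2.99 ± 0.378 CPM in mutants (log2 fold change -0.49, limma, Benjamini-Hochberg adjusted p = 0.331). Control 1, at 3.06 CPM, lay among the mutants. Apoe was at 174 ± 28.2 and 154 ± 33.5 CPM and had r = 0.89 with the macrophage genes, Rnase4 was at 8.80 ± 0.416 and 10.5 ± 2.83 CPM, and the chemerin receptor Cmklr1 was at 5.72 ± 1.16 and 6.05 ± 0.776 CPM. The resident macrophage markers Timd4, Folr2 and Cd163 and the monocyte receptor Ccr2 were not among the listed genes, and every listed gene reached 1 CPM in at least 4 libraries.

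Of 24 genes of white blood cells in general 20 were listed, 0 were higher and 1 was lower at an unadjusted p under 0.05. This was Cyba, a subunit of the phagocyte oxidase that other cells make as well, at 41.1 ± 6.30 and 33.0 ± 4.11 CPM (log2 fold change -0.31). Arhgdib was at 47.4 ± 3.86 and 46.9 ± 4.44 CPM and Lcp1 at 30.3 ± 3.53 and 29.4 ± 2.26 CPM. The summed CPM of the list was 182 to 193 in controls and 170.0 to 178 in mutants, and most of this difference was that of Cyba. Mean log2 deviations over the list overlapped between the groups, with mutant 2 the highest library, and the median log2 fold change of the list was -0.04. The count of 1 became 0 without control 2 and without mutant 2.

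Taken as 1 group without the 10 macrophage genes, these 8 lists held 162 genes, of which 112 were listed. Limma with Benjamini-Hochberg adjustment called 0 of the 112, and at an unadjusted p under 0.05 it called 3 as higher, or 2.68% against 5.45% of all genes, and 11 as lower, or 9.82% against 6.62%. Their median log2 fold change was -0.04, against 0.0010 over all genes, and their median r with the 10 macrophage genes was 0.27, against -0.0069 over all genes.

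Markers of lymphoid cells and granulocytes were mostly outside the listed genes. Of 9 lymphoid and natural killer cell markers 0 were listed. Of 9 neutrophil markers only Mpo was listed, at 1.77 ± 0.336 CPM in controls and 1.53 ± 0.878 CPM in mutants, and of 8 mast cell and basophil markers only Hdc, at 1.28 ± 0.447 and 1.16 ± 0.444 CPM. Of 6 microglia markers 5 were listed and 0 passed an unadjusted p of 0.05, with Sall1 at 34.9 ± 3.91 and 33.7 ± 5.53 CPM and Tmem119 at 23.8 ± 1.46 and 27.4 ± 4.97 CPM. Both are made by mesenchyme of the embryo as well. The summed CPM of the microglia list was 105.3 to 105.9 in controls and 108.7 to 112.5 in mutants, without overlap. Mean log2 deviations over this list overlapped between the groups.

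Markers of red blood cells varied between libraries in part as the macrophage genes did. All 8 erythroid markers were listed and 0 of 8 passed an unadjusted p of 0.05, a count that became 5 of 8 without mutant 4, the lowest library. Their summed CPM was 1750, 3556, 3095 and 2864 in controls 1 to 4 and 4542, 5368, 2946 and 1469 in mutants 1 to 4, with the embryonic globin Hbb-y the most abundant. Mutant 2 was thus the highest and control 1 among the lowest for both erythroid markers and macrophage genes, but mutant 1, with one of the lowest macrophage sums, had the next highest erythroid sum. The part of blood held in the tissue in the level of the macrophage genes was not tested. Other globins were Hba-x at 667 ± 205 CPM in controls and 768 ± 332 CPM in mutants and Hba-a1 at 547 ± 180 and 682 ± 394 CPM, and reads of Hba-a1 and its near-identical copy cannot be told apart with certainty.

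Megakaryocyte and platelet markers were lower in the mutant libraries on average, and their median r with the macrophage genes was 0.28. Of 8 markers 6 were listed, 0 were higher and 4 were lower at an unadjusted p under 0.05, against 6.62% of all genes, with log2 fold changes of -0.67 for Gp1ba, -0.68 for Gp9, -0.55 for Ppbp and -0.51 for Itga2b. Their summed CPM was 26.9, 49.8, 29.0 and 32.9 in controls 1 to 4 and 26.9, 23.0, 25.5 and 16.7 in mutants 1 to 4, with Itga2b the most abundant at 15.9 ± 4.36 and 10.8 ± 1.81 CPM. Control 2 was far above the rest, and mutant 2 was among the lower libraries. The count of 4 came down to 2 without control 2, and likewise to 2 without mutant 4. Pf4, which macrophages of the embryo also make, was at 6.02 ± 2.61 and 4.20 ± 1.21 CPM. The part of platelets in the lower values of F13a1 and Fyb was not tested.

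Of 6 blood progenitor markers 6 were listed and 1 was higher at an unadjusted p under 0.05. This was Cd34, which vessels make too, at 183 ± 8.44 CPM in controls and 233 ± 36.9 CPM in mutants with groups that did not overlap (log2 fold change 0.34, limma, Benjamini-Hochberg adjusted p = 0.259). The sum of the list, most of it Cd34, was 224 to 234 CPM in controls and 240 to 327 CPM in mutants, while mean log2 deviations over the list overlapped between the groups. Gata2 was at 25.1 ± 2.20 and 25.6 ± 3.64 CPM and Kit at 15.1 ± 2.35 and 14.3 ± 1.22 CPM.

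Markers of the main cells of the outflow tract were taken from endothelium, cushion mesenchyme and cardiomyocytes. Of 7 endothelial markers 7 were listed and 1, Emcn, was lower at an unadjusted p under 0.05, at 32.3 ± 8.64 CPM in controls and 21.4 ± 4.22 CPM in mutants (log2 fold change -0.57). Cdh5, Tek and Pecam1, the most abundant of them, were at 187 ± 20.4, 167 ± 10.9 and 148 ± 10.6 CPM in controls and at 176 ± 11.1, 182 ± 24.8 and 156 ± 6.69 CPM in mutants. Of 6 cushion mesenchyme markers 6 were listed and 0 passed, with Vcan the most abundant at 1968 ± 165 and 1953 ± 165 CPM, then Col1a1 at 1106 ± 167 and 1081 ± 122 CPM and Postn at 644 ± 46.1 and 779 ± 279 CPM. Of 6 cardiomyocyte markers 6 were listed, and 5 were lower at an unadjusted p under 0.05, against 6.62% of all genes, with log2 fold changes of -0.45 for Myh6, -0.39 for Myh7, -0.35 for Tnnt2, -0.34 for Actn2 and -0.25 for Ttn. Their summed CPM was 20464, 19833, 19419 and 17706 in controls 1 to 4 and 14986, 13794, 15188 and 16679 in mutants 1 to 4, with Myh7 the most abundant at 10362 ± 634 and 7915 ± 650 CPM. All 4 mutant libraries were under all 4 controls in this sum. Since CPM are shares of a library, the part of this difference in the level of the macrophage genes was not tested.

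**Figure D5:**
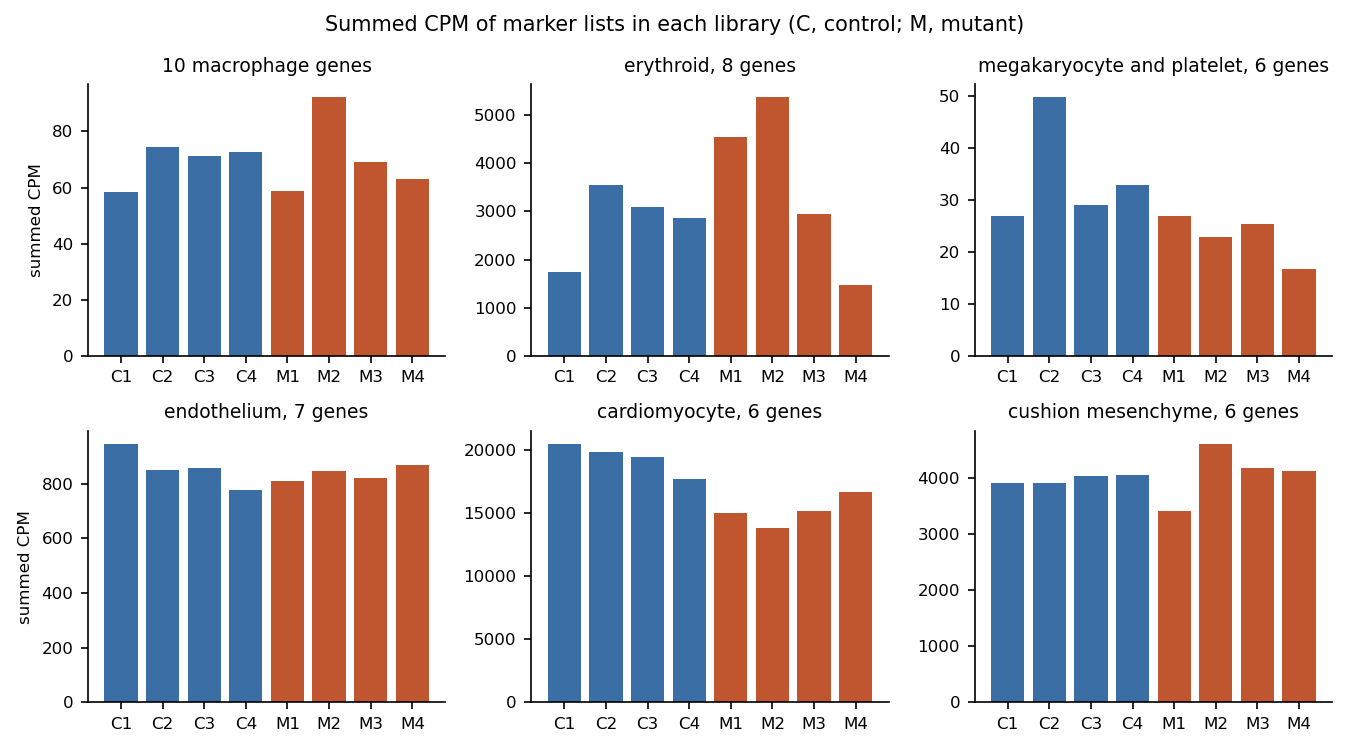
Summed CPM of the 10 macrophage genes and of markers of 5 other cell types in controls 1 to 4 (blue bars) and mutants 1 to 4 (orange bars), each panel on its own scale from 0. The macrophage sum is highest in mutant 2 at 92.1 CPM and lowest in control 1 at 58.4 CPM, while the cardiomyocyte sum lies lower in all 4 mutant libraries.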

How the data were processed

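PolyA RNA of 4 control and 4 Mib1V943F/+ Gata6STOP/+ OFT pools was sequenced by the authors, who trimmed reads with cutadapt, quantified genes with RSEM on GRCm38 and the Ensembl gene build, and normalized with TMM in edgeR, as the study's methods and the submitters' processing notes say. The deposited values are CPM of 14608 genes. Samples were grouped by their labels. Here log2(CPM + 0.5) was fitted with limma 3.58.1 in R 4.3.3 (lmFit, then eBayes with trend, 2-sided) on all 8 libraries and all genes, with Benjamini-Hochberg adjustment over the 14608 genes, after the procedure was tested on simulated data. Single genes were also compared with exact permutation tests over 70 relabellings. No filter on low values was added. All CPM values were whole multiples of 1 step in their library to within 0.01 of a read, which gave depths and Poisson counting intervals. Gene positions, exons and lengths came from GENCODE M21, on GRCm38, and promoters from RefSeq, on GRCm38.p6. Python 3.11.15, pandas 2.3.3, numpy 2.4.6, scipy 1.17.1 and matplotlib 3.10.9 were used for the rest.

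The 10 genes and the 18 lists beside them were chosen with earlier results of these data known, so that no count over a list is given as a test. Within each list, the 3 genes of highest mean CPM and up to 4 genes at an unadjusted p under 0.05 were named, except for some that are not reported here; the 10 genes most like the macrophage genes were those of highest Pearson's r over the 8 libraries. Of the lists' genes, 9 stood in more than 1 list. Other pseudocounts, a filter, other scalings, a replicate block and leaving out each library were tried as alternatives.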

Additional observations from a re-analysis of the deposited data

Results flagged for a closer look

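In a group of 4 libraries, a library was singled out where its gap to the nearest of the others took up most of the range of the group. This held for 14 of the 182 groups examined (7.69%), and chance gives about 1 in 20. Among the 14, Mpo and Hdc are each counted as a gene and again as the sum of a list. Csf1r reached 26.0 CPM in mutant 2, against 16.4 to 17.6 CPM in the other mutants, and Cx3cr1 reached 10.7 CPM in control 4, against 8.51 to 8.72 CPM in the other controls. Mutant 2 also had 2.83 CPM of Mpo, the one listed neutrophil gene and so that list's sum, 14.3 CPM of Syk and 71.3 CPM of Zeb2. Control 4 had 0.617 CPM of Hdc, the one listed mast cell gene. Control 1 had 3.06 CPM of F13a1, 19.4 CPM of Lyn and 3082 CPM of Ttn. Control 2 had 61.4 CPM of Lipa and 71.7 CPM of Tgfb1, and mutant 3 had 213 CPM of Id3.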

How the results depend on the processing

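Under pseudocounts of 0.1 and 1, a filter at a mean of 5 CPM (which 6 of the 10 genes pass), scaling by library sum or by medians of ratios, a replicate block and without each library in turn, limma with Benjamini-Hochberg adjustment called 0 of all genes. The number of the 10 genes at an unadjusted p under 0.05 was 0 in each of these except without mutant 2. There it was 1 (Mrc1, lower), while over all genes 798 were lower and 532 higher in the same fit. The number of the 10 genes thus ran from 0 to 1 over the leave-one-out fits. The labels' design text speaks of pairs of samples, and the main fit used no pairing. Deviations of same-numbered libraries correlated at 0.01, -0.27, 0.05 and -0.0061, and over all combinations of a control and a mutant library from -0.30 to 0.38. These values cannot show whether samples were paired, since pairs need not follow the replicate numbers. With the number as a block, 0 of all genes and 0 of the 10 were called, and 1304 genes had an unadjusted p under 0.05 in place of 1763. That total was 1121 without control 2 and 1172 without control 3; genes higher in mutants numbered 796, and 450 and 493 without these libraries. Of the counts for single lists and for 1 direction, 41 moved by over 1.5 times, most of them counts of 1 to 5 genes.

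Signs of log2 fold changes turned for 7 genes when 1 library was left out, from -0.13 to 0.086 for Csf1r, -0.035 to 0.32 for C1qa, -0.25 to 0.16 for C1qc, -0.043 to 0.077 for Cx3cr1, -0.055 to 0.19 for Adgre1, -0.041 to 0.23 for Ptprc and -0.16 to 0.14 for Tyrobp. Medians of ratios turned Cx3cr1 to -0.00049. Fewer samples enter these fits; the cause was not tested. C1qb stayed above 0, at 0.03 to 0.24, and Mrc1 and Fcer1g below it. Of 316 values of 23 other genes named for their unadjusted p, 274 kept their direction and side of 0.05, 42 kept the direction only, and 0 turned.

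Tests on whole reads by edgeR's quasi-likelihood and likelihood ratio and by DESeq2 were planned on recovered reads and were not run; the deposited CPM were kept as the unit. With 33 to 94 reads in some libraries, levels of Ptprc, Tyrobp and Fcer1g are the least precise of the 10.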
